A study of Mus musculus with 2 samples.

Results

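Genes for excitation-contraction coupling and for calcium handling were examined in primary mouse myoblasts in which the histone methyltransferase gene Mll1 (Kmt2a) was targeted for deletion. The set lists 34 genes, chosen by name with earlier results of these data known, so it is not independent evidence. A gene was measured where a probe set of the array carried that gene symbol alone. By this rule 32 of the 34 genes were measured, on 53 probe sets, out of 19938 named genes on 21789 probe sets in all. Itpr1 and Scn4a had no such probe set and were not analysed here. Both cultures came from the same line of myoblasts, purified by magnetic selection for α7-integrin from hind limb muscle of Rosa-CreER / MLL1 fl/fl mice 5 to 6 weeks old, so that both carried floxed Mll1 alleles and a Cre fused to an estrogen receptor domain. This Cre is expressed from the widely active Rosa locus and enters the nucleus when 4-hydroxytamoxifen (4-OHT) is added. The MLL1 KO culture received 500 nM 4-OHT in 0.01% ethanol for 7 days, and the Control culture received 0.01% ethanol alone. A washout of 3 days followed according to the sample labels, although the methods of the study give a shorter one. The growth medium of both was Ham's F10, which contained FGF at 5 ng/ml and 20% serum and keeps myoblasts dividing. The study asked which transcripts depend on MLL1. RNA of each culture was hybridised to 1 Affymetrix MoGene 1.0 ST array, and every value below is the log2 signal that the authors obtained by RMA, a method that subtracts background, equalises the distributions of the arrays and combines probes into probe set values. Differences were taken as the MLL1 KO signal minus the Control signal on the log2 scale, and a fold expresses the same difference on the linear scale. Genes past 2-fold, the threshold of the study's methods, were counted. Because each condition has 1 array, no replicate spread, standard error or test exists, the number of arrays limits the precision, and all counts describe these 2 arrays of 1 cell line. The targeted gene Kmt2a had log2 signals of 9.66 in MLL1 KO and 9.44 in Control on a probe set that spans its transcript. The sources differ on which exons the deletion removes, and a summary over the whole transcript does not check it. The study itself assessed the deletion by RT-qPCR and reported loss of MLL1 protein in myoblasts treated with 4-OHT. It also plotted fold changes of array probe sets along the Mll1 transcript, with the floxed exons marked. That plot was not examined here.

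In skeletal muscle the action potential runs along the surface membrane into the transverse tubules, where the voltage sensor, an L-type calcium channel, touches the ryanodine receptor of the sarcoplasmic reticulum and opens it. Calcium stored on lumenal proteins, above all calsequestrin, then leaves the reticulum, starts contraction and is pumped back by the SERCA ATPases. Most of this machinery is built when myoblasts leave the cell cycle and fuse, whereas the widely expressed calcium genes, such as those of calreticulin, SERCA2 and the store-operated entry channels, also serve dividing cells.

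In the MLL1 KO array 3 genes of the set were over 2-fold higher, namely the calsequestrin genes Casq1 and Casq2 and S100a1, and none was over 2-fold lower. These 3 of 32 genes compare with 1.16% of all named genes that were over 2-fold higher and 0.11% that were over 2-fold lower. With the 6614 control probe sets of the array pooled with the 19938 named genes, these shares were 3.13% and 0.267%. Control probe sets thus passed 2-fold more often than named genes in both directions. Their own share lies above the pooled one, so the count of the set is not set apart from them by the pooled share. At a 1.5-fold difference the count was 6 higher and 0 lower, beside 4.86% and 2.01% of all named genes, and the further 3 were Cacng1, Trdn and Cacna1s. Without regard to size, 23 of the 32 genes were higher and 9 were lower, where 41.6% of all named genes were higher and 55.6% were lower. The median log2 difference was 0.25 for the set and -0.05 for all named genes.

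Most of the listed markers of differentiated muscle were higher in the same array. Of 10 such markers 9 were higher in MLL1 KO and 2 of these passed 2-fold, beside 41.6% and 1.16% of all named genes. The 2 were Myl1, with 11.42 in MLL1 KO and 10.20 in Control, and Mymk, with 10.05 in MLL1 KO and 8.91 in Control. Myog, which encodes myogenin, had 7.94 in MLL1 KO and 7.30 in Control and was 1.56-fold higher. The study took the myogenin level as unchanged and concluded that loss of MLL1 did not cause precocious differentiation. The list had a median log2 difference of 0.71 and a summed linear signal of 7011 in MLL1 KO and 3640 in Control. The lower marker of the list was Ckm, the muscle creatine kinase, with 5.76 in MLL1 KO and 5.87 in Control. The share of cells that express these genes and the RNA per cell cannot be told apart in bulk RNA, and the part that differentiating cells have in the differences of the set was not tested.

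The direction of a difference depended on the strength of the signal in these arrays, so the counts were also read apart. Among genes with a mean signal of both arrays over 6, 17 of 23 members were higher, against 58.3% of all such genes, and the median differences were 0.26 for the members and 0.06 for all. Among the dimmer genes, 6 of 9 members were higher, against 23.9% of all such genes, and the medians were 0.09 and -0.15. The 3 genes over 2-fold were all in the brighter class, where 1.7% of all genes were over 2-fold higher. The plot of difference against signal shows where each member lies among genes of like signal.

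**Figure D1:**
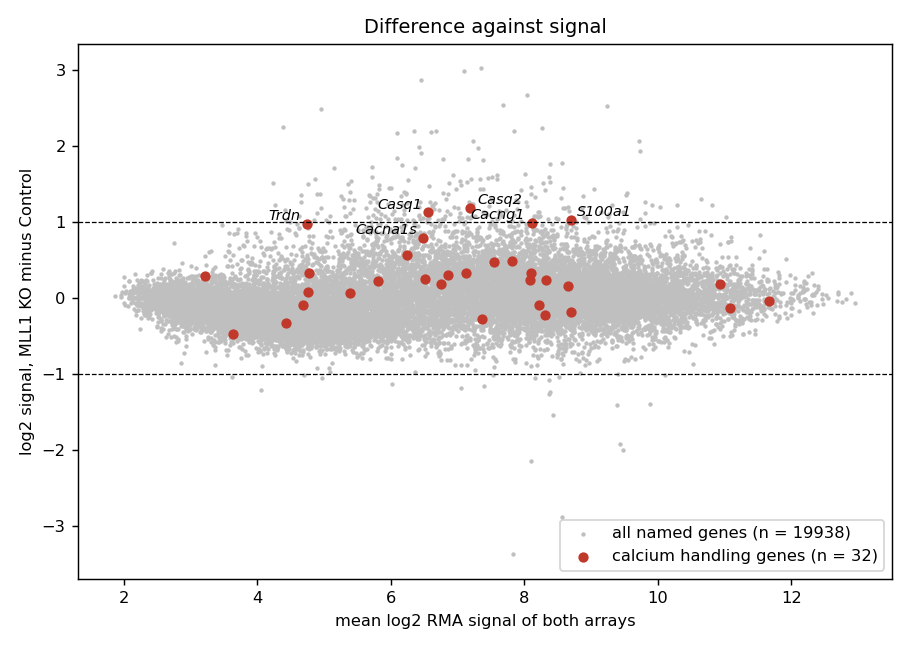
Each grey point is a named gene and each red point a gene of the set, with the mean log2 RMA signal of both arrays on the horizontal axis and the log2 signal of MLL1 KO minus Control on the vertical axis; dashed lines mark 2-fold differences. Casq1, Casq2 and S100a1 lie above the upper line, Cacng1 and Trdn lie just below it, and no red point lies under the lower line.

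The calsequestrins, low-affinity calcium buffers of the sarcoplasmic reticulum that hold the releasable store, had the largest differences of the set when the probe sets of each gene were averaged. Casq2, known as the form of cardiac and slow muscle, had a log2 signal of 7.79 in the MLL1 KO array and 6.60 in the Control array, a log2 difference of 1.19 or 2.28-fold. Casq1, the form of fast skeletal muscle, had a log2 signal of 7.13 in the MLL1 KO array and 5.998 in the Control array, a log2 difference of 1.13 or 2.19-fold. Of the genes in the same of 10 equal groups by mean signal, 1.25% had a difference as high as or higher than that of Casq2 and 2.06% as that of Casq1. The Casq1 gene overlaps a noncoding RNA gene, Gm17224, in the RefSeq table. The other lumenal proteins differed less. Hrc, the histidine-rich calcium-binding protein, had log2 signals of 5.93 in MLL1 KO and 5.69 in Control and was 1.18-fold higher. Srl, which encodes sarcalumenin, had 8.45 in MLL1 KO and 8.21 in Control and was 1.19-fold higher. Calr, which encodes the endoplasmic reticulum chaperone calreticulin and is widely expressed, had 11.65 in MLL1 KO and 11.69 in Control, a log2 difference of -0.04.

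The promoters of the 3 genes over 2-fold are shown because these genes passed it together, and they were searched for sites of the muscle regulators. The sequences are from RefSeq on GRCm38.p6, from 250 bases before to 50 bases after the annotated start, and run 5′ to 3′ on the strand of the gene. Capitals mark the E-box forms CAGCTG and CAGGTG, which MYOD-type factors bind, and the MEF2 consensus, each searched on both strands. Casq1 lies on the minus strand of chromosome 1, and the window is chr1:172219846-172220145. Casq2 lies on the plus strand of chromosome 3, at chr3:102086165-102086464, and S100a1 lies on the minus strand of chromosome 3, at chr3:90514281-90514580.
Casq1: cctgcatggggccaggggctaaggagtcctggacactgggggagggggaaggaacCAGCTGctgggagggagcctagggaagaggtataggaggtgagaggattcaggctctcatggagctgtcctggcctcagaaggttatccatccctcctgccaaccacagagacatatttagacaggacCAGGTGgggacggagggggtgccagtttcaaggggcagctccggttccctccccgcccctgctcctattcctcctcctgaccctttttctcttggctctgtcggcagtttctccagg
Casq2: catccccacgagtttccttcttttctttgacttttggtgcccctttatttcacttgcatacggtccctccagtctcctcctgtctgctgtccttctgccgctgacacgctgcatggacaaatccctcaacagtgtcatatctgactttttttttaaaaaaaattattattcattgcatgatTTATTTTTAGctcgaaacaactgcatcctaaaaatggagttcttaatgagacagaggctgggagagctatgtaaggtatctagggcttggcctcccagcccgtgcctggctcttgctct
S100a1: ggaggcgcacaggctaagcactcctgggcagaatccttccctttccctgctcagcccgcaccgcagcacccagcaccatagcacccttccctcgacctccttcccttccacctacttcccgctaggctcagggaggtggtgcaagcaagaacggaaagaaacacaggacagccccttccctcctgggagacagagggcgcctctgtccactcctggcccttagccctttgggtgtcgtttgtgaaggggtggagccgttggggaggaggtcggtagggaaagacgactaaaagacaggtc
The Casq1 window holds CAGCTG beginning 195 bases before the start and CAGGTG beginning 67 bases before it. The Casq2 window holds a MEF2 consensus match, TTATTTTTAG, beginning 69 bases before the start, and these searches found no match in the S100a1 window. Of the measured members, 21 had a promoter in the RefSeq table. CAGCTG occurred in 11 of them, or 52.4%, against 18.3% of all 27025 genes with a promoter and 16.3% of all 32851 windows. CAGGTG occurred in 2 of the 21, or 9.52%, against 22.6% of all genes and 20.2% of all windows, and the MEF2 consensus in 3, namely Casq2, Clcn1 and Pvalb, or 14.3%, against 3.7% of all genes and 3.19% of all windows. The median log2 difference was 0.26 for the 11 members with CAGCTG and 0.33 for the 10 without it. For CAGGTG it was 0.61 for the 2 members with it and 0.29 for the 19 without it, and for the MEF2 consensus 0.09 for the 3 with it and 0.30 for the 18 without it. A match is a stretch of letters and not a measured binding site.

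The voltage sensor of the transverse tubule is made of a pore, which senses voltage, and accessory subunits. Cacna1s, the pore subunit of skeletal muscle, had a log2 signal of 6.88 in the MLL1 KO array and 6.09 in the Control array and was 1.73-fold higher. Cacng1, the γ subunit restricted to skeletal muscle, had 8.61 in MLL1 KO and 7.61 in Control and was 1.99-fold higher, with 1.65% of the genes of similar signal as high or higher. Cacnb1, the β subunit that brings the channel to the membrane, was 1.40-fold higher, with 7.78 in MLL1 KO and 7.30 in Control. In each of these 3 subunits the MLL1 KO signal was thus the higher one. The remaining subunit and an adaptor differed less. Cacna2d1, the α2δ subunit found in many tissues, has 2 probe sets, which had differences of 0.19 and 0.14 and a mean of 1.12-fold higher, from 8.74 in MLL1 KO and 8.58 in Control. Stac3, an adaptor that couples the sensor to release, had 8.20 in MLL1 KO and 8.42 in Control and was 1.16-fold lower. The median log2 difference of these 5 genes was 0.49.

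**Figure D2:**
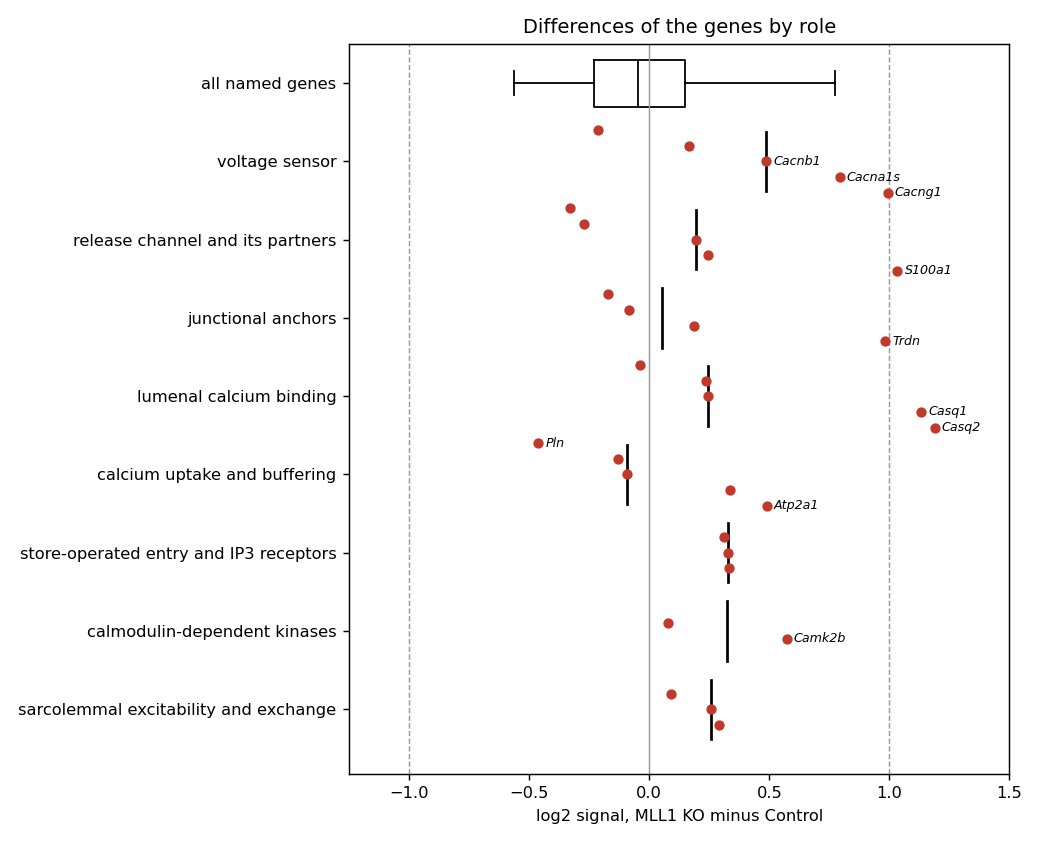
Each red point is a gene, placed by its log2 signal in MLL1 KO minus Control on the horizontal axis and grouped by role, with a black bar at the median of the group; the box shows all 19938 named genes (quartiles, with whiskers over the central 95%) and dashed lines mark 2-fold. The calsequestrins, S100a1, Cacng1 and Trdn lie farthest to the right and Pln farthest to the left.

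S100a1, which encodes a calcium-binding protein that binds ryanodine receptors and SERCA, had a log2 signal of 9.21 in the MLL1 KO array and 8.18 in the Control array and was 2.05-fold higher. It was the member just inside the 2-fold line, where Cacng1 at 1.99-fold and Trdn at 1.98-fold were just outside it. S100a1 passed by a margin that the scaling decides, because its log2 difference was 0.99 with the trend on signal removed and 0.98 after a further quantile normalization. Its gene overlaps S100a13 in the RefSeq table, and S100a13 had log2 signals of 7.10 in MLL1 KO and 6.86 in Control. The release channel itself showed no such difference. Ryr1, the ryanodine receptor of skeletal muscle, had 8.21 in MLL1 KO and 7.97 in Control and was 1.19-fold higher, with 27.7% of the genes of similar signal as high or higher. Ryr3, a form of developing muscle, had weak signals of 4.26 in MLL1 KO and 4.59 in Control. Fkbp1a, which encodes a channel-stabilizing immunophilin and is expressed in all cells, had 11.03 in MLL1 KO and 10.84 in Control and was 1.14-fold higher. Jsrp1, which encodes a junctional protein that binds the voltage sensor and calsequestrin, had 7.23 in MLL1 KO and 7.51 in Control and was 1.21-fold lower.

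**Figure D3:**
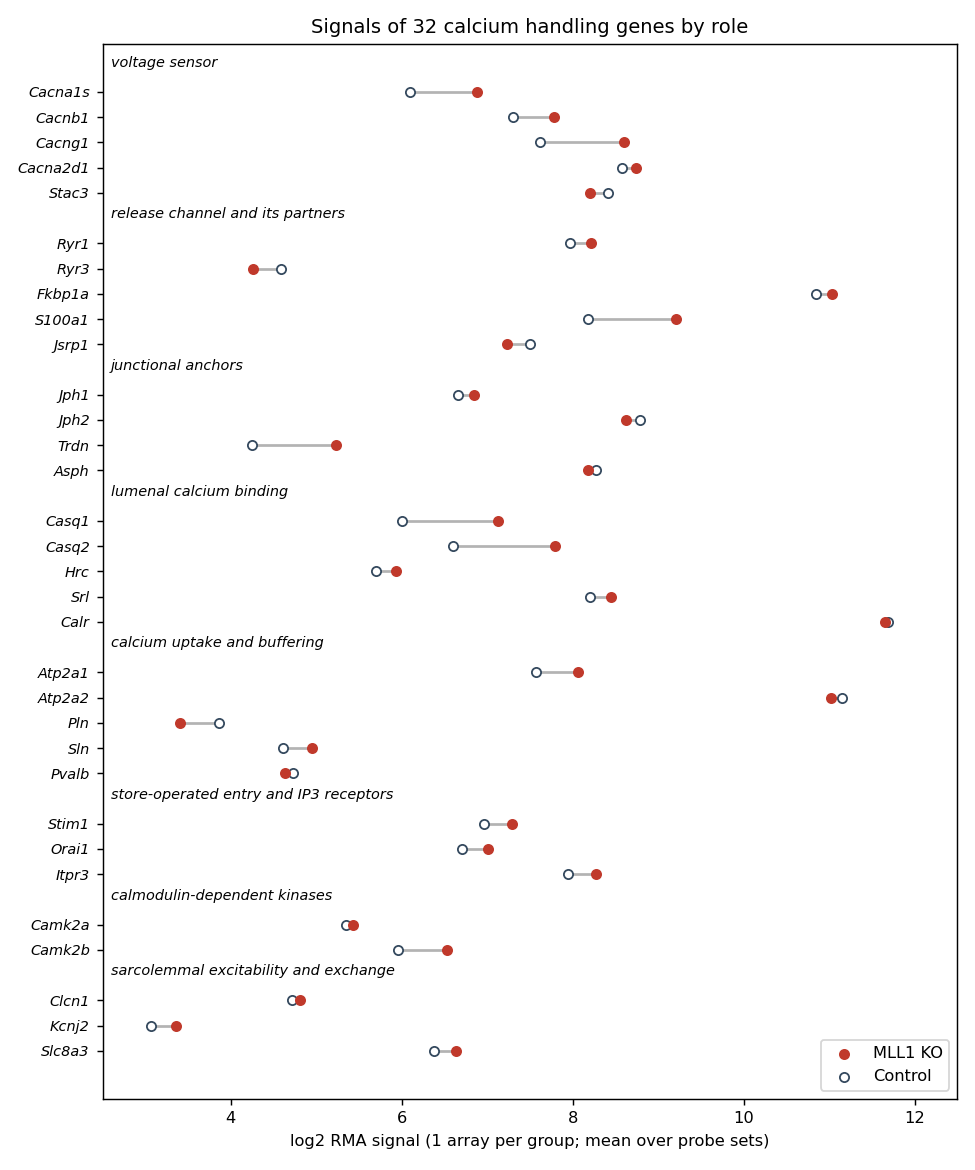
Log2 RMA signals of the 32 measured genes, 1 row per gene, with a filled red point for the MLL1 KO array and an open point for the Control array (1 array each, mean over probe sets where a gene has several). Among the genes with widely separated points, the MLL1 KO signal is on the right for Casq1, Casq2, S100a1, Cacng1, Cacna1s and Trdn.

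Junctional proteins hold the transverse tubule and the reticulum together and anchor calsequestrin to the release channel. Trdn, which encodes triadin, a link between the ryanodine receptor and calsequestrin, is represented by 19 probe sets. Their mean log2 signal was 5.24 in the MLL1 KO array and 4.25 in the Control array, or 1.98-fold higher. This mean passed 2-fold under some choices, with a log2 difference of 1.04 after median-centring and also with the trend on signal removed, and the brightest probe set alone was over 2-fold higher. The 19 differences were not alike. Of the 19, 10 were over 2-fold higher, with differences from 1.03 to 2.46, and the remaining 9 lay between -0.20 and 0.40, beside 1.18% of all named probe sets over 2-fold higher and 0.101% over 2-fold lower. Of the 10 over 2-fold higher, the strongest signal was that of probe set 10362420, at 8.46 in MLL1 KO and 6.96 in Control. Probe set 10362434 followed, at 8.15 in MLL1 KO and 6.57 in Control. Trdn overlaps a noncoding RNA gene, D830005E20Rik, and 3 pseudogenes in the RefSeq table. The largest difference was that of probe set 10362424, at 5.47 in MLL1 KO and 3.00 in Control.

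The Trdn probe sets that differed stood together in the order of the probe set numbers. In the positions that the study lists for other probe sets, the numbers rise along each strand of a chromosome for nearly all neighbouring pairs, and the Trdn numbers fall among those of the plus strand of chromosome 10. Taken in this order, 9 of the first 11 probe sets were over 2-fold higher and their median difference was 1.58 (log2), whereas 1 of the last 8 was and their median was 0.35. The split after the eleventh was placed after the values had been seen. Probe set 10362432, within the first block, had strong signals of 7.55 in MLL1 KO and 7.30 in Control and a difference of 0.24. In the last block the highest signal was 5.93 in the MLL1 KO array and 5.72 in the Control array, so all 8 were under 6 in both. Triadin is known to be made as several isoforms with different ends, and no source used here says which isoforms these probe sets report.

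**Figure D4:**
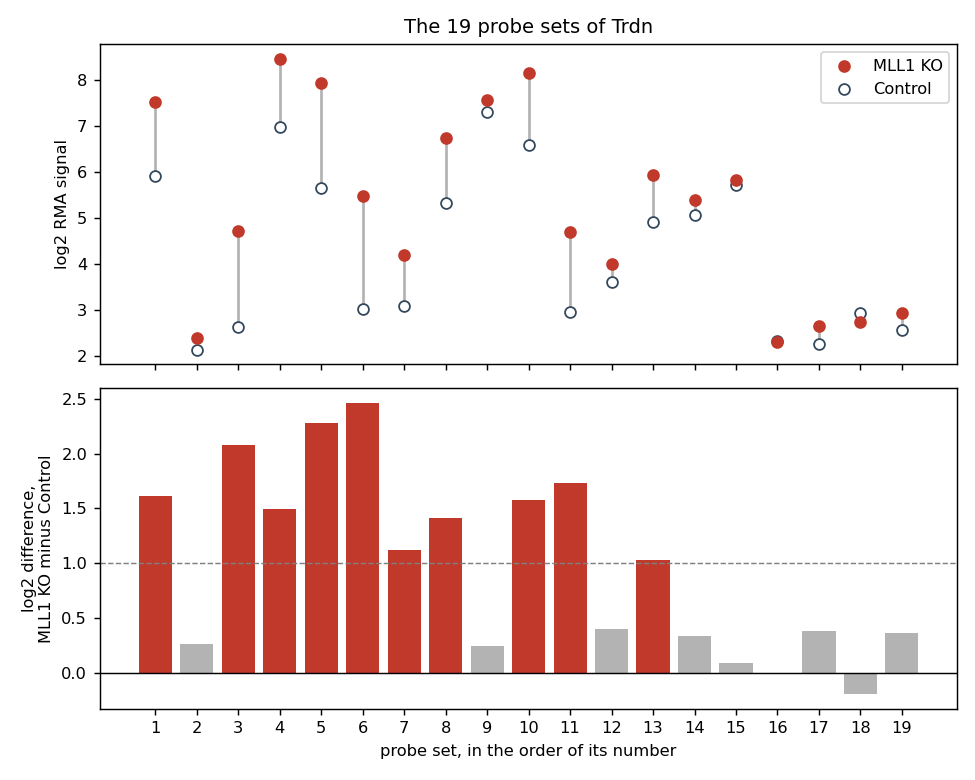
The 19 Trdn probe sets in the order of their numbers, with the log2 RMA signal of MLL1 KO (filled) and Control (open) above and the log2 difference of MLL1 KO minus Control below, where red bars pass the dashed 2-fold line. Of the first 11, 9 bars are red, and of the last 8, 1 is.

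The other junctional genes differed by less than 1.2-fold. Jph1, the junctophilin of skeletal muscle that ties the reticulum to the tubule, had 6.84 in MLL1 KO and 6.66 in Control over 2 probe sets with differences of 0.11 and 0.27. Jph2, its partner in skeletal and cardiac muscle, had 8.62 in MLL1 KO and 8.79 in Control over 2 probe sets with differences of -0.17 and -0.17. Both probe sets of each gene therefore had the same sign, positive for Jph1 and negative for Jph2. Asph, a locus that encodes both the reticulum protein junctin and a widely expressed hydroxylase, had 8.18 in MLL1 KO and 8.27 in Control, and its 1 probe set does not separate these products.

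SERCA pumps return calcium to the reticulum, small peptides inhibit these pumps, and soluble buffers bind calcium in the cytosol. Atp2a1, which encodes SERCA1 of fast muscle, had 8.06 in the MLL1 KO array and 7.57 in the Control array and was 1.40-fold higher. Atp2a2, which encodes the SERCA2 pump of slow muscle and of non-muscle cells, had 11.02 in MLL1 KO and 11.15 in Control and was 1.09-fold lower. The 2 pump genes thus differed in opposite directions. Sln, which encodes the SERCA inhibitor sarcolipin, had weak signals of 4.95 in MLL1 KO and 4.61 in Control, a log2 difference of 0.34. Pln, which encodes the SERCA inhibitor phospholamban, had 3.41 in MLL1 KO and 3.87 in Control, and its difference of -0.46 was the lowest of the set, with 5.12% of the genes of similar signal as low or lower. Pvalb, which encodes the calcium buffer parvalbumin of fast adult fibres, had 4.63 in MLL1 KO and 4.72 in Control. These 3 genes had signals below the median of all named genes, which was 6.19 in the MLL1 KO array and 6.12 in the Control array. The median log2 difference of the 5 genes was -0.09, and it was 0.11 with the trend on signal removed.

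Store-operated entry refills the reticulum through a lumenal sensor and a channel of the plasma membrane. Stim1, the sensor, had 7.29 in MLL1 KO and 6.96 in Control and was 1.26-fold higher, and Orai1, the channel, had 7.01 in MLL1 KO and 6.70 in Control and was 1.24-fold higher. Itpr3, a receptor for inositol trisphosphate that releases calcium in many cell types, had 8.27 in MLL1 KO and 7.94 in Control and was 1.26-fold higher. These 3 differences lay within 0.31 and 0.33 on the log2 scale, and between 20.2% and 28.0% of the genes of similar signal were as high or higher.

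Of the calmodulin-dependent kinases, Camk2b, a β form found in neurons and muscle, had 6.53 in MLL1 KO and 5.96 in Control and was 1.49-fold higher. Camk2a, an α form chiefly of neurons, had 5.43 in MLL1 KO and 5.35 in Control and was 1.05-fold higher. Among genes of surface excitability, Kcnj2, an inward rectifier that sets the resting potential, had the low signals of 3.36 in MLL1 KO and 3.07 in Control. Its log2 difference of 0.29 was matched or exceeded by 1.71% of the genes of similar signal. Clcn1, the chloride channel of the muscle membrane, had 4.81 in MLL1 KO and 4.72 in Control, and Slc8a3, a sodium-calcium exchanger, had 6.64 in MLL1 KO and 6.38 in Control. None of these 3 genes reached a signal of 7 in either array. In the RefSeq table Cacnb1, Atp2a1, Pln, Asph and Clcn1 each overlap another protein-coding gene, and which gene each probe reads was not examined.

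Further genes of the pathway outside the set were read from a list of 104, of which 92 were measured. None was over 2-fold higher or lower, beside 1.16% and 0.11% of all named genes. At such shares a list of 92 genes would hold few or none. At 1.5-fold 8 were higher and 0 lower, beside 4.86% and 2.01% of all named genes. By any size 48 were higher and 41 lower, beside 41.6% and 55.6% of all named genes. The median log2 difference of the 92 further genes was 0.01, against 0.25 for the set and -0.05 for all named genes. The largest increase was that of Cacng7, a γ subunit best known from neurons, with 10.29 in MLL1 KO and 9.34 in Control, or 1.94-fold higher. Kcnj12, another inward rectifier of muscle, was 1.81-fold higher, with 6.52 in MLL1 KO and 5.66 in Control. Dysf, which encodes the membrane repair protein dysferlin, was 1.76-fold higher, with 7.67 in MLL1 KO and 6.86 in Control. Rcan2, a regulator of calcineurin, was 1.74-fold higher, with 6.57 in MLL1 KO and 5.76 in Control, and Rcn3, a lumenal calcium-binding chaperone, was 1.603-fold higher, with 9.96 in MLL1 KO and 9.28 in Control. Among calcium pumps and mitochondrial uptake genes the highest was Micu3, a regulator of the mitochondrial uniporter, at 1.25-fold. At the lower end, Kcna5, a potassium channel, was 1.45-fold lower, Jph4, a junctophilin of neurons, 1.45-fold, Atp2b2, a plasma membrane calcium pump, 1.38-fold, Trpc4, a cation channel, 1.34-fold, Cacnb2, a β subunit of the heart, 1.28-fold, and Nfatc4, a calcium-regulated transcription factor, 1.20-fold lower. All 6 of these lower genes had signals under 6 in both arrays.

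Of 11 satellite cell and myoblast markers 4 were higher and 7 were lower, beside 41.6% and 55.6% of all named genes. A signal over 7 in at least 1 array was seen for 10 of them. These included Myod1 at 12.27 in MLL1 KO and 12.15 in Control and Des at 11.49 in MLL1 KO and 11.58 in Control. Pax7 had 10.02 in MLL1 KO and 10.29 in Control. Itga7, which encodes the α7-integrin used to purify the cells, had 9.66 in MLL1 KO and 10.06 in Control. Both of the markers over 2-fold lower were in this list, namely Myf5, with 6.14 in MLL1 KO and 9.51 in Control, and Fgfr4, with 7.77 in MLL1 KO and 9.001 in Control. No marker of fibroblasts, endothelium, cardiac muscle or nerve that was measured had a signal over 7. Of 5 immune markers only Cd68, a lysosomal glycoprotein, did, with 7.47 in MLL1 KO and 6.08 in Control, and Ptprc, Itgam, Csf1r and Adgre1 were all under 5 in both arrays. Of 5 smooth muscle markers 3 were higher and 2 lower, with a summed linear signal of 2915 in MLL1 KO and 2860 in Control, and Acta2 and Smtn had signals over 7.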

How the data were processed

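Total RNA of 1 MLL1 KO culture and 1 Control culture was measured on Affymetrix MoGene 1.0 ST arrays. The authors normalized the arrays by RMA and deposited log2 signals of 35557 probe sets (RMA is named in the submitters' processing notes, with no version). These values were used as deposited. The 6614 probe sets at the lowest numbers, which carry no gene symbol, were left out as control probe sets. Of the other 28943, 21789 had 1 gene symbol in the platform annotation, 1621 had several and 5533 had none, and only the first kind was named. Probe sets of a gene were averaged, giving 19938 genes. The log2 difference of MLL1 KO minus Control was computed per gene and called at over 2-fold. Since each condition has 1 array, no test was run, and depth is not defined for arrays. Genes of similar signal are those in the same of 10 equal groups by mean signal.

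Every measured member is named, and of the further pathway genes the highest and the lowest of each of 6 lists. Markers were named as defining genes of the labelled cells or, chosen after their values were seen, where a count turned on them. Myog was named because the study reported its level. The members and all gene lists were chosen with earlier results of these data known, so no list is independent evidence. Alternatives were median-centred differences, removal of a lowess trend on signal (span 0.3), quantile normalization, thresholds of 3-fold and 1.5-fold, genes over 7 on the brighter array or over 6 on average, the brightest probe set or each probe set by itself, and control probe sets included. The averaging into genes and the fold counts were tested on simulated arrays in which some genes were shifted by known amounts, with little noise. The other steps were not tested in this way. Promoters came from RefSeq tables on GRCm38.p6, on which 21 of the 32 measured members had an entry. The order of probe set numbers along a chromosome was checked on the positions in the study's supplementary table.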

Additional observations from a re-analysis of the deposited data

How the results depend on the processing

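No paired analysis was possible because each condition has 1 array, and no array could be left out. The count of 3 members over 2-fold higher was 5 after median-centring (Cacng1 and Trdn added), 4 with the brightest probe set (Trdn added), 3 with the trend on signal removed (Trdn in place of S100a1), 2 after quantile normalization (without S100a1), 13 with each probe set counted by itself (10 of them of Trdn), 6 at 1.5-fold and 0 at 3-fold. The count of 23 higher among 32 members was 13 of 19 at a signal over 7 in the higher array, a filter that favours genes high in either array. By single probe sets it was 41 of 53, where Trdn alone gave 17 of the 41 and 19 of the 53. The median difference of the set stayed between 0.17 and 0.30. Quantile normalization moved the median of the voltage sensor from 0.49 to 0.38. The median of the junctional anchors went from 0.052 to -0.046 and so changed sign. Store-operated entry and IP3 receptors went from 0.33 to 0.21, and the sarcolemmal genes from 0.26 to 0.16. Removal of the trend on signal moved the median of uptake from -0.09 to 0.11 and that of the calmodulin-dependent kinases from 0.32 to 0.43. The sign of Calr turned after median-centring, at 0.02, and that of Pvalb without the trend, at 0.11. Further pathway genes over 2-fold higher numbered 1 after centring and 8 at 1.5-fold. At 3-fold, 5 Trdn probe sets passed. The share of genes over 2-fold higher was 1.77% at a signal over 7 and 3.13% with control probe sets included. The share over 2-fold lower was 0.197% and 0.267%. Since the shares of named genes alone were 1.16% and 0.11%, the control probe sets passed 2-fold more often than named genes, in both directions. The cause of these shifts was not tested.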
